A study of Rattus norvegicus with 6 samples.

Results

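The genes of hepatic fatty acid synthesis other than the desaturase Scd were followed from citrate export to the first esterification step, together with their regulator. The 6 genes, of 4736 with a symbol on the array, were Slc25a1, Acly, Acaca, Fasn, Gpam and Srebf1. Every probe set whose single symbol in the platform's annotation was one of these was taken, which gave 13 of the 8799 probe sets of the array and at least 1 for each gene. Of these, 9 probe sets, covering all 6 genes, passed a filter on dim signals, and the other 4 are described by their levels. RNA came from livers of male Sprague Dawley rats that were kept on total enteral nutrition, a liquid diet infused by tube, over 3 weeks. The NASH group, named for nonalcoholic steatohepatitis, had 3 samples from a diet with 70% corn oil at a daily energy supply of 220 kcal per kg of metabolic mass. The Control group had 3 samples from a diet with 5% corn oil at 187 kcal on the same basis. No allele or drug is named for either group, and the age of the rats is not given in the sources used here. Fat content and energy supply differed together, so their effects cannot be told apart. Nothing in the labels says that the samples came from separate rats, so the p-values measure only how far these samples lie apart, and that spread may be technical.

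Lipogenesis turns surplus carbohydrate into fat. Citrate leaves the mitochondrion through the carrier Slc25a1, Acly splits it into acetyl-CoA, Acaca carboxylates acetyl-CoA to malonyl-CoA, and Fasn builds palmitate from both. Gpam, on the outer mitochondrial membrane, joins the first acyl chain to glycerol 3-phosphate. Srebf1 encodes the factor SREBP-1, which insulin raises in liver and which switches on the genes of the chain, while dietary polyunsaturated fat is known to lower it in rodents.

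Promoter sequences, 250 bases before to 50 after the gene start, were found in the RefSeq table of build GRCr8 for 4 of the 6 genes, with 2 entries for Srebf1. Fasn and Acaca had no entry. Those of 3 genes are shown because the first pair serve neighbouring steps of citrate use but differed widely in how they varied between arrays, and the third has few of the motifs of the others. Capitals mark CCAAT and GGGCGG on either strand, so that ATTGG and CCGCCC are the same motifs read on the other strand.
Acly, chr10:85963582-85963881, minus strand: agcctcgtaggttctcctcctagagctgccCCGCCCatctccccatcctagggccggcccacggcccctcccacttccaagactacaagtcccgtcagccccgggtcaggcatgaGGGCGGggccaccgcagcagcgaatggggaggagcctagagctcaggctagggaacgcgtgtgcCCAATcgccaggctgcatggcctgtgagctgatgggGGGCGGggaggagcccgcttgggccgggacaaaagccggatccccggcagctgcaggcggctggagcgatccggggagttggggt
Slc25a1, chr11:96559804-96560103, plus strand: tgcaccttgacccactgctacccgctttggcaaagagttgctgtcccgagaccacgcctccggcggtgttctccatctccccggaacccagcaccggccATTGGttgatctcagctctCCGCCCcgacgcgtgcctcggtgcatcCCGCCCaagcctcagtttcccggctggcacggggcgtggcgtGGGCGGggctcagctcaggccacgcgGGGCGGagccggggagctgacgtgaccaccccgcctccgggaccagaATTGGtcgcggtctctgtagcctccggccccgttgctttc
Gpam, chr1:264175862-264176161, minus strand: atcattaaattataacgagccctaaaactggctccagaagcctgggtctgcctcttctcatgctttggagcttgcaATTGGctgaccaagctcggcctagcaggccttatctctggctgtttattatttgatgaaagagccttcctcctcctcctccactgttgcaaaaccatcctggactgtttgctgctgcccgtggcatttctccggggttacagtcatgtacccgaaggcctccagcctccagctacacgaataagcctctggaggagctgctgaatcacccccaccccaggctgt

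The Acly window held 3 GC boxes (GGGCGG) and 1 CCAAT, the Slc25a1 window 4 and 2, and the Gpam window 0 and 1. The Srebf1 windows held 3 GC boxes each, with 1 CCAAT in the upstream and 2 in the downstream entry. Of 33465 promoters of the same length, 33.1% held GGGCGG and 37.5% held CCAAT at least once. The E-box CACGTG, in 6.42% of all promoters, and one strict form of the sterol response element, in 0.126%, were in none of the 5 windows. A match is a description of the letters only.

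Labelled liver tissue was checked against 13 measured hepatocyte markers of 14 listed, all above the filter, whose summed quantile-normalized signal was 45423 to 47408 in NASH and 45274 to 48163 in Control. Trimmed mean signals as deposited lay between 73.6 and 117 over the 6 arrays, and none were identical. NASH 2 held fat and muscle transcripts. The summed signal of 9 measured adipocyte markers of 11 was 4327 there, against 579 and 669 in the other NASH arrays and 503 to 516 in Control. For 10 measured muscle markers of 11 it was 2646 in NASH 2, against 115 and 145 in NASH 1 and NASH 3 and 101 to 150 in Control. Leukocyte markers, 11 measured of 12, summed to 420 to 834 in NASH, with the highest in NASH 2, and 445 to 594 in Control. Stellate and endothelial markers, 7 measured of 7, summed to 371 to 908 in NASH, with the highest in NASH 2, and 365 to 629 in Control. Cholangiocyte markers, 2 measured of 4, summed to 34.8 to 46.1 in NASH and 29.7 to 61.3 in Control, with the highest in Control 2. Of 11 tested feeding and clock genes, Control 2 was the highest array for 4, the lowest for 3 and neither for 4. Its log2 level was 10.84 for the serine dehydratase Sds (at most 6.45 elsewhere) and 2.04 for the clock factor Bmal1 (at least 5.16 elsewhere). For the gluconeogenic enzyme Pck1 it had 10.37, below the 10.39 of NASH 2. The clock genes Nr1d1 and Nr1d2 had 6.82 and 5.62 in Control 2 (at most 5.69 and 4.58 elsewhere), and Per2 5.33, below the 5.50 of Control 1. Dbp, below the filter and so outside the count, had 7.10 in Control 2 and at most 3.50 elsewhere. The cause of these values was not tested. Control 3 had the highest ratio of 3' to 5' actin control signal, 5.07 against 2.15 to 2.93 elsewhere. The bulk RNA cannot tell fewer cells of a type from less RNA per cell.

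None of the 9 tested probe sets passed the threshold between NASH and Control. Differences are on the log2(signal + offset) scale after quantile normalization, and were tested with limma across 5244 probe sets at a Benjamini-Hochberg adjusted p under 0.05, which called 0.133% of all probe sets (0.0381% as lower in NASH). At an unadjusted p under 0.05 the members' count was also 0, against 7.86% of all probe sets. The signs were mixed, with 5 probe sets lower (52.9% of all tested) and 4 higher in NASH and a median difference of −0.22, beside −0.021 over all probe sets tested. Citrate export (Slc25a1), citrate cleavage (Acly) and the regulator (Srebf1) had negative differences, carboxylation (Acaca) and esterification (Gpam) positive ones, and Fasn 1 of each. The plot of values by array shows how far the groups overlapped.

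**Figure D1:**
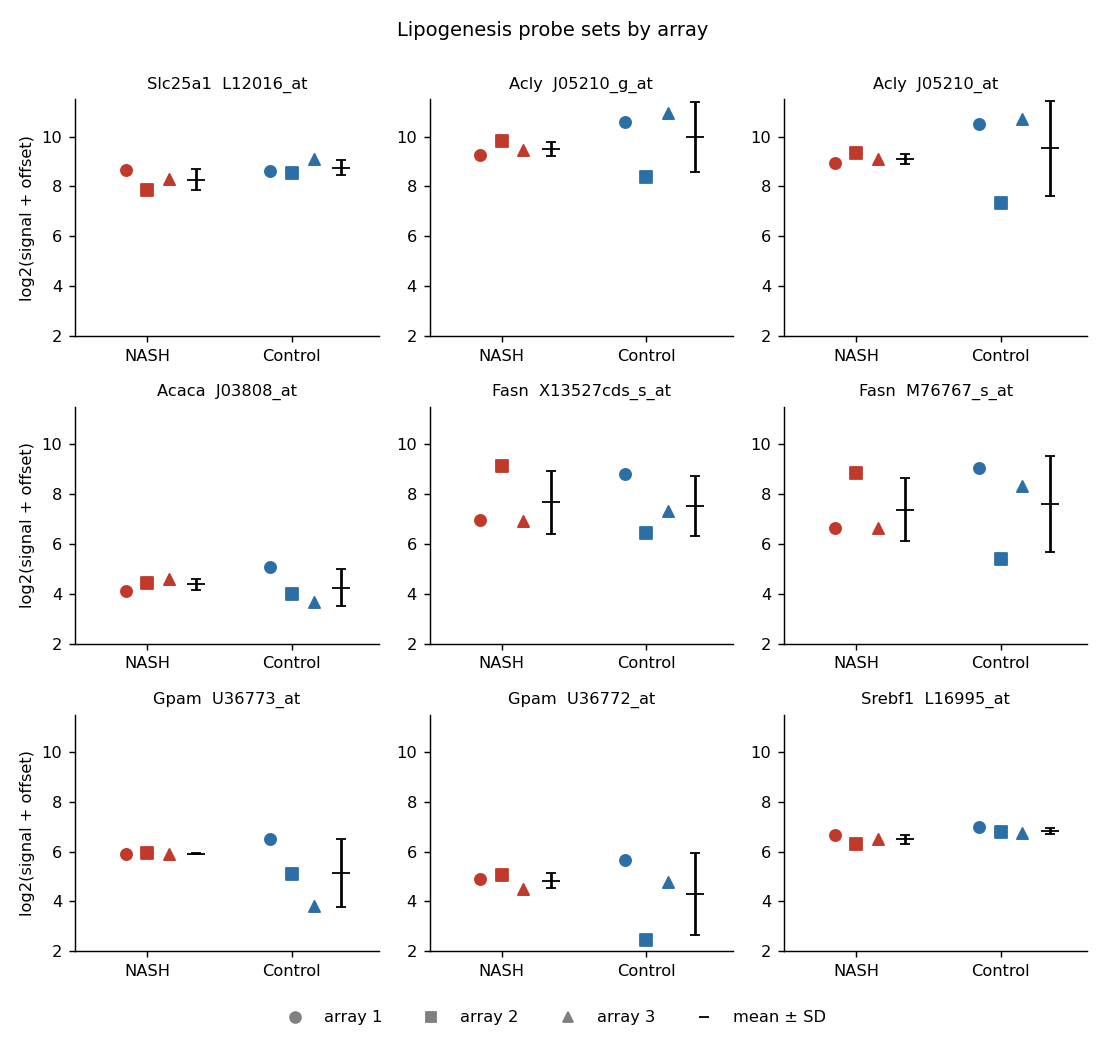
Log2(signal + offset) of the 9 tested probe sets (vertical axis) in NASH (red) and Control (blue), with 1 symbol shape per array number and the mean ± SD of 3 arrays beside them. The 3 NASH values of Acly lie between a low Control 2 and the 2 other Control arrays, and only Srebf1 has groups apart.

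Slc25a1 (L12016_at), the mitochondrial citrate carrier, had quantile-normalized signals of 406, 227 and 315 in NASH 1, 2 and 3, against 395, 374 and 542 in Control 1, 2 and 3. NASH 2 was the lowest and Control 3 the highest, and the groups overlapped through NASH 1. The mean log2 level was 8.27 ± 0.42 in NASH and 8.76 ± 0.29 in Control (SD, n = 3 each). The difference was −0.49 ± 0.26 (standard error), with a 95% interval from −1.10 to 0.12 and a limma adjusted p of 0.647. The interval leaves room for a Slc25a1 signal in NASH between 0.468 and 1.09 times that of Control. Without NASH 2, which held transcripts of fat and muscle, the difference was −0.27, without Control 3 −0.32 and without NASH 1 −0.68 ± 0.28, with limma adjusted p-values of 0.925, 0.752 and 0.643.

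Acly, ATP citrate lyase, differed widely between the Control arrays. Its brighter probe set, J05210_g_at, had signals of 611, 900.4 and 704 in NASH 1, 2 and 3, against 1537, 331 and 1994 in Control 1, 2 and 3. The probe set J05210_at gave 485, 640.3 and 547 in NASH, against 1455, 160.1 and 1688 in Control. All NASH values thus lay below Control 1 and Control 3 and above Control 2. Both probe sets come from the same transcript record and are not independent of each other. The log2 difference was −0.46 ± 0.60 for J05210_g_at (95% interval −1.85 to 0.93, limma adjusted p = 0.859). For J05210_at it was −0.41 ± 0.80 (−2.24 to 1.43, adjusted p = 0.914).

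The 2 groups differed more in spread than in mean for Acly, and the wide Control spread rested on Control 2. With J05210_at, the log2 levels were 10.51 and 10.72 in Control 1 and Control 3, against 7.34 in Control 2. With J05210_g_at, they were 10.59 and 10.96, against 8.38. Control 1 and Control 3 alone lay closer together than the 3 NASH arrays did with either probe set. The 3 NASH arrays spanned 0.40 on the log2 scale with J05210_at, or 1.32-fold, while the 3 Control arrays spanned 3.38, or 10.4-fold. With J05210_g_at the spans were 0.56 in NASH and 2.58 in Control, and 1.35% of all probe sets tested had a Control span at least as wide. The remaining Acly probe set, L27075_g_at, lay below the filter, with signals of 9.30 to 11.2 in NASH against 4.58 to 32.7 in Control. There Control 3 was lowest and Control 1 highest, so that this dim probe set did not share the order of the bright pair.

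The Acly difference depended on single Control arrays. Without Control 2, it was −1.48 ± 0.19 for J05210_at and −1.25 ± 0.22 for J05210_g_at, and neither passed the threshold (limma adjusted p = 0.0621 and 0.172). Without Control 2 and NASH 2 together it was −1.59 ± 0.20, with an adjusted p of 0.0470 for J05210_at, and −1.40 ± 0.21 with 0.0623 for J05210_g_at. The first of these was the single call among the members in any alternative. Control 2 is also the array that was lowest in these probe sets, so a fit without it is no independent support for a fall. Without Control 3 the signs turned, to 0.20 for J05210_at and 0.032 for J05210_g_at, and without Control 1 J05210_at had a difference of 0.081.

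Acaca, acetyl-CoA carboxylase alpha, gave a weak signal. Its probe set J03808_at had 15.2, 19.4 and 21.6 in NASH 1, 2 and 3, against 31.8, 13.6 and 10.6 in Control 1, 2 and 3. All NASH values lay within the Control span, whose ends were Control 1 and Control 3. The log2 difference was 0.13 ± 0.40 (95% interval −0.79 to 1.05, limma adjusted p = 0.948), and it ran from −0.15 without Control 3 to 0.54 without Control 1.

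Fasn, fatty acid synthase, was high in 1 NASH array and in 1 or 2 Control arrays. The probe set M76767_s_at had signals of 96.7, 455 and 98.4 in NASH 1, 2 and 3, against 522, 40.3 and 319 in Control 1, 2 and 3. The probe set X13527cds_s_at had 124, 563 and 118 in NASH, against 449, 83.8 and 158 in Control. NASH 1 and NASH 3 were close to each other and NASH 2 lay 4.62-fold above the lowest NASH array with M76767_s_at. Both probe sets had Control 2 lowest, and they placed Control 3 differently. The log2 differences were −0.22 ± 0.96 for M76767_s_at (95% interval −2.44 to 2.00) and 0.15 ± 0.74 for X13527cds_s_at (−1.56 to 1.86), with limma adjusted p-values of 0.962 and 0.965.

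The high Fasn value of NASH 2 came with fat cell transcripts in the same array. There the brown fat uncoupling protein Ucp1 had a quantile-normalized signal of 1241, against at most 21.9 in the other arrays, and the fat cell fatty acid binding protein Fabp4 1141, against at most 3.22. Fat cells also make Fasn and Acly, and the part of these transcripts in the Fasn and Acly values of NASH 2 was not tested. Without NASH 2 the Fasn differences were −0.96 ± 0.96 (M76767_s_at) and −0.59 ± 0.63 (X13527cds_s_at), with limma adjusted p-values of 0.936 and 0.939. Without Control 2 they were −1.33 and −0.40. Without both arrays they were −2.11 ± 0.31 and −1.16 ± 0.49, with limma adjusted p-values of 0.0623 and 0.628. For both probe sets Control 2 was the lowest Control array and NASH 2 the highest NASH array. Leaving them out lowers the difference by construction, so these fits are no independent support for a fall.

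Gpam, the mitochondrial glycerol-3-phosphate acyltransferase, had 5 probe sets, of which 2 passed the filter. The brighter, U36773_at, gave 57.4, 58.9 and 57.3 in NASH 1, 2 and 3, against 89.9, 31.9 and 11.9 in Control 1, 2 and 3. The NASH arrays were nearly equal, with a log2 SD of 0.021, and lay inside the Control span of 2.71. The other, U36772_at, gave 27.8, 31.6 and 20.3 in NASH, against 48.1, 3.25 and 25.3 in Control, again with all NASH values inside the Control span. The log2 differences were 0.77 ± 0.58 (95% interval −0.58 to 2.12, limma adjusted p = 0.738) and 0.53 ± 0.73 (−1.14 to 2.21, adjusted p = 0.868).

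The low Control value of Gpam was not the same array in both probe sets. It was Control 3 with U36773_at and Control 2 with U36772_at. Without Control 3 the U36773_at difference was 0.094, without Control 1 it was 1.45 ± 0.38 (95% interval 0.54 to 2.36, limma adjusted p = 0.364), and without Control 2 that of U36772_at was −0.40. Control 3, with its high 3' to 5' ratio, was lowest for 2 of the 9 tested member probe sets, Acaca and U36773_at, near the 21.4% of all probe sets tested. It was also lowest for 3 of the dim member probe sets, where its signals were only 1.72 to 4.58. No share over all dim probe sets was computed for these. The part of RNA quality in these values was not tested. The 3 dim Gpam probe sets, U36773_g_at, U36771_g_at and U36771_at, had signals of 2.35 to 18.3 in NASH and 1.72 to 23.8 in Control. Without the filter their differences lay between 0.067 and 0.47, with limma adjusted p-values from 0.881 to 0.984.

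Srebf1 (L16995_at), which encodes SREBP-1, was the 1 member probe set whose groups did not overlap. Its signals were 99.2, 76.8 and 88.2 in NASH 1, 2 and 3, against 124, 110 and 104 in Control 1, 2 and 3. The count, 1 of 9, stands beside 14.3% of all probe sets tested without overlap, 7.76% with NASH below. The mean log2 level was 6.49 ± 0.18 in NASH and 6.84 ± 0.13 in Control (SD, n = 3 each). The difference was −0.35 ± 0.20, with a 95% interval from −0.81 to 0.11 and a limma adjusted p of 0.652. It did not pass the threshold, and it ran from −0.44 without NASH 1 to −0.26 without NASH 2. On the linear scale the interval covers NASH signals from 0.571 to 1.08 times those of Control. The single probe set does not separate transcripts from the 2 starts in the promoter table.

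The members varied unequally between arrays of a group. Within Control, 6 of the 9 tested probe sets, of Acly, Fasn and Gpam, spanned more than 2 on the log2 scale, a limit set after the values were seen, beside 3.97% of all probe sets tested. Within NASH the same held for both Fasn probe sets, beside 2.42% of all. Srebf1 was narrow, with a Control span of 0.25, and 87.3% of probe sets tested had a span at least as wide. Slc25a1 had a Control span of 0.53 (58.7%) and Acaca one of 1.41 (10.7%), between Slc25a1 and the 6 wide probe sets. All 3 NASH values lay inside the Control span for 6 of the 9, beside 26.8% of all probe sets tested, and the Control SD was above the NASH SD for 6, beside 64.3% of all. The 6 wide probe sets are of 3 genes, and probe sets of a gene share their transcript. Both Gpam spans rest on low Control signals, 3.25 for U36772_at in Control 2 and 11.9 for U36773_at in Control 3. Such values depend on the offset of 2.21. With an offset of 16 the differences were 0.19 for U36772_at and 0.51 for U36773_at, and spans at that offset were not computed.

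**Figure D2:**
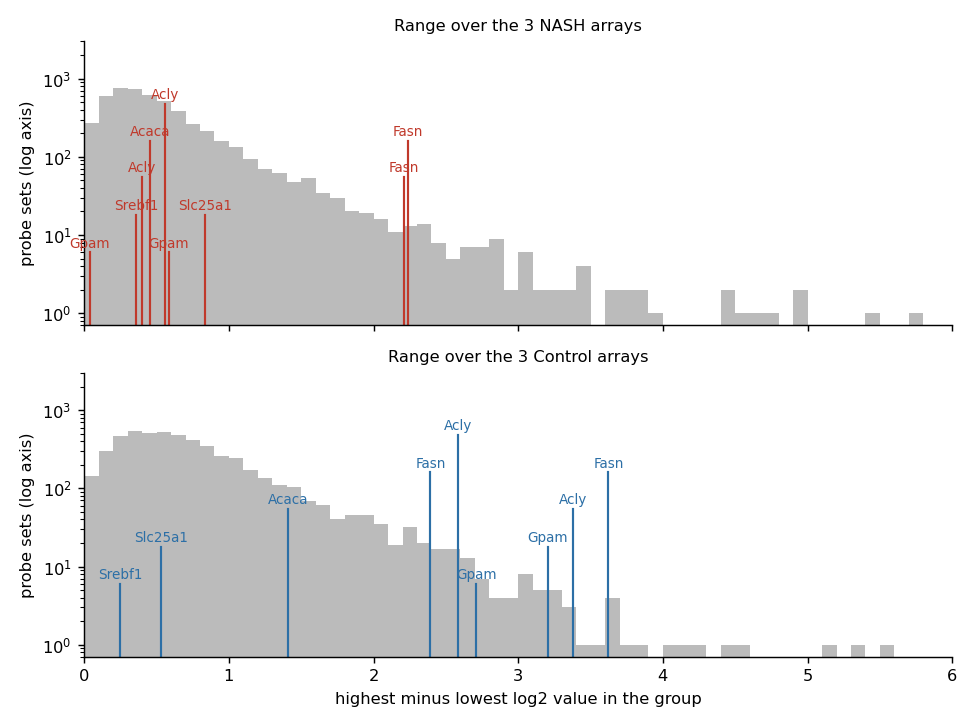
Number of tested probe sets (vertical log axis) by the highest minus the lowest log2 value within the 3 NASH arrays (upper panel) and the 3 Control arrays (lower panel), with the 9 lipogenesis probe sets as labelled lines. Acly, Fasn and Gpam lie beyond 2 in Control, Acaca lies at 1.41, and Srebf1 and Slc25a1 lie among the bulk at 0.25 and 0.53.

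Acly, Fasn and the Gpam probe set U36772_at shared their lowest array. This was Control 2, the lowest of the 6 arrays for these 5 of the 9 probe sets (22.1% of all tested). Control 1 was the highest for 5 (12.3% of all), which were only in part the same probe sets. They were those of Acaca and Srebf1, both tested ones of Gpam and M76767_s_at of Fasn. Both bright Acly probe sets were highest in Control 3. Over the 6 arrays, Pearson's r of the log2 levels, given as a description with no test, was 0.86 between J05210_at of Acly and M76767_s_at of Fasn. It was 0.84 between J05210_at and U36772_at of Gpam, and 0.83 between M76767_s_at and U36772_at. These pairs, picked from 36, share the low Control 2, and r without that array was not computed. Of the other pairs between these genes, J05210_g_at with M76767_s_at had 0.87, and the rest were lower. J05210_at had 0.56 with X13527cds_s_at and −0.099 with U36773_at, and M76767_s_at had 0.13 with U36773_at. The highest r between genes was 0.88, for Acaca with U36773_at. The regulator Srebf1 had r of 0.16 with J05210_at and −0.055 with M76767_s_at, and 0.73 with Slc25a1. The 2 tested Gpam probe sets had r of 0.37 with each other, against 0.90 for the 2 Fasn and 0.99 for the bright Acly pair. All these values share the same 6 arrays.

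**Figure D3:**
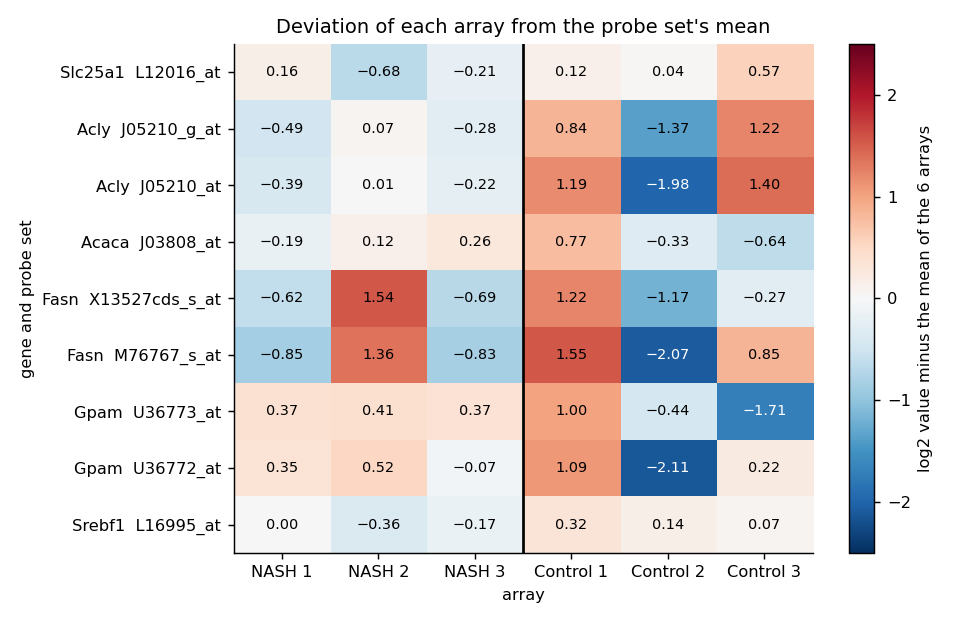
Log2 level of each array (columns) minus the mean of the 6 arrays for each tested lipogenesis probe set (rows), in colour and as printed values. Control 2 reaches −1.98 for Acly, −2.07 for Fasn and −2.11 for Gpam, NASH 2 reaches 1.54 for Fasn, and Srebf1 stays between −0.36 and 0.32. The Gpam value of Control 2 (U36772_at) comes from a signal of 3.25, close to the offset.

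**Figure D4:**
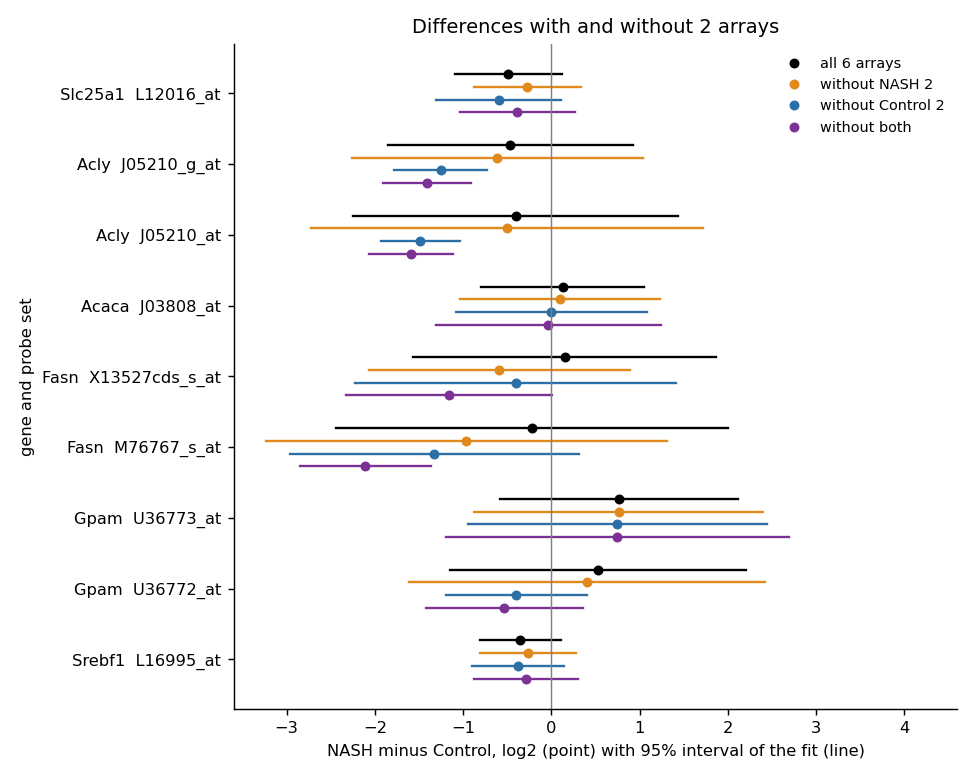
NASH minus Control on the log2 scale (points) with 95% intervals of the limma fit (lines) for the 9 lipogenesis probe sets, over all 6 arrays and without NASH 2, Control 2 or both. Acly moves from −0.41 with all arrays to −1.48 without Control 2 with J05210_at, while Srebf1 stays between −0.38 and −0.26.

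Wash records of the instrument were filled for NASH 1, NASH 2, Control 1 and Control 3 and blank for NASH 3 and Control 2. Among the 4 filled ones, the Acly differences were −1.47 ± 0.24 (J05210_at) and −1.22 ± 0.27 (J05210_g_at), with limma adjusted p-values of 0.279 and 0.616. Between NASH 3 and Control 2 they were 1.76 and 1.08, with no test. For Fasn they were −0.96 and −0.010 among the filled ones and 1.24 and 0.48 between the blank ones, for M76767_s_at and X13527cds_s_at in that order. U36772_at of Gpam had −0.23 and 2.05 on the same terms. Srebf1 had −0.38 and −0.31, and Slc25a1 −0.61 and −0.25, both negative in either set. The blank set holds Control 2 as its single Control array, so the record and that array cannot be told apart. Among the filled records both NASH arrays were washed later than both Control arrays, so run and diet cannot be told apart there.

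The genes around the chain were counted with 1 probe set per gene. Of 4 tested partners of synthesis and desaturation, 3 were lower and 1 higher in NASH, with a median difference of −0.16 beside −0.021 over all probe sets tested. Scd, stearoyl-CoA desaturase, was the 1 that passed, with −4.13 ± 0.49 (limma adjusted p = 0.0342). It was called in 9 of 17 alternatives, with the same sign in all and adjusted p-values from 0.0013 to 0.125. The call was lost with no filter, without the intensity trend, with the replicate block (adjusted p = 0.0805) and with any 1 array other than NASH 2 left out. The elongase Elovl5 differed by 0.62 and Acacb, the mitochondrial carboxylase, by −0.27. Of 11 tested genes of NADPH and sugar supply, 9 were lower and 2 higher, with a median of −0.12 and 0 past the threshold. The triokinase Tkfc had −1.70, the liver pyruvate kinase Pklr −1.84 and the fructokinase Khk −0.70 (limma adjusted p = 0.0874, 0.208 and 0.503).

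Glycerolipid synthesis, the route that Gpam opens, had 7 lower and 4 higher of 11 tested genes, a median of −0.073 and 0 past the threshold. Among acyl-CoA synthetases, which activate fatty acids for this route, Acsl3 differed by 1.01 and Acsl1 by −0.49, and the glycerol-3-phosphate dehydrogenase Gpd1 by 0.69. Of 19 tested regulators, 11 were lower and 8 higher, with a median of −0.012 and 0 past the threshold. The subunits Prkab1 and Prkaa2 of AMP-activated kinase, which phosphorylates and inhibits acetyl-CoA carboxylase, had −0.80 and −0.70, and the retinoid receptor Rxra 0.54 (limma adjusted p = 0.393, 0.503 and 0.619). Of 11 tested feeding and clock genes, 7 were higher and 4 lower, with a median of 0.31. The insulin-repressed Igfbp1 fell by 1.76 on the log2 scale and passed (limma adjusted p = 0.0342). That call was kept in 5 of 17 alternatives and lost, among others, in each fit with an array left out or with a block (replicate block, adjusted p = 0.140), at differences from −1.89 to −1.42 and adjusted p-values from 0.00968 to 0.279. The pyruvate dehydrogenase kinase Pdk4 had 1.97 and the clock gene Per2 −0.89, neither past the threshold.

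**Figure D5:**
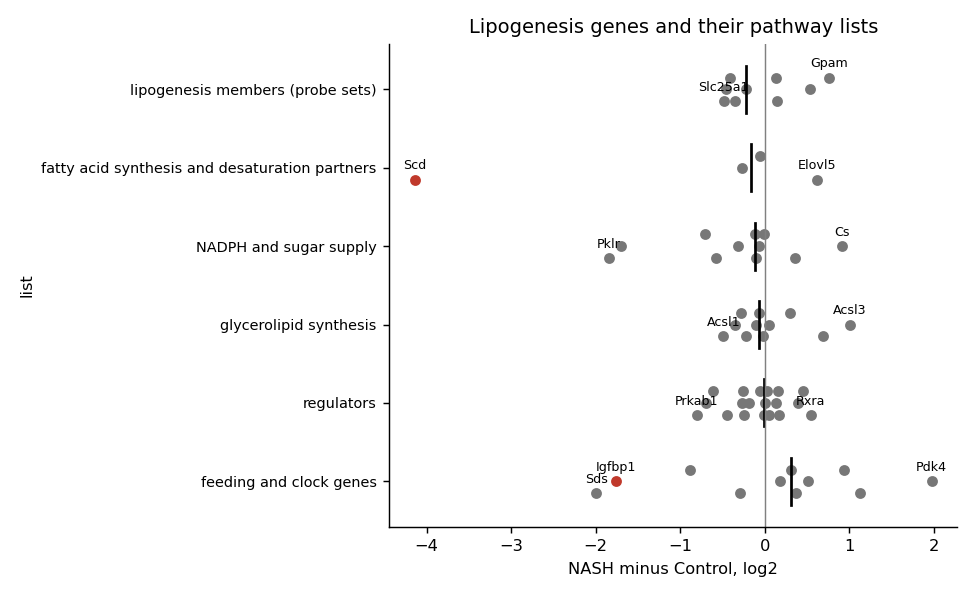
NASH minus Control on the log2 scale for the 9 lipogenesis probe sets and for the tested genes of 5 pathway lists (rows), with the median of each as a black line and probe sets past an adjusted p of 0.05 in red. The lipogenesis values lie between −0.49 and 0.77, and Scd and Igfbp1 are the red points.

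The probe sets most like each gene over the 6 arrays were searched among 4299 tested ones with a single symbol, by Pearson's r with the brightest probe set of the gene. The 3 highest are given as a description with no test. They were Ywhaz (0.994), Sgk2 (0.987) and Dgcr6 (0.987) for Slc25a1. For Acly they were P2ry14 (0.977), Tgfbr3 (0.972) and Fggy (0.967). Those of Fasn were Tspy1 (0.976), Dlat (0.960) and Shank1 (0.944), and those of Acaca were Mapk14 (0.974), Egr1 (0.957) and Pakap (0.953). Gpam was closest to Vdac1 (0.993), Rab7a (0.992) and Id3 (0.984), and Srebf1 to Afm (0.981) and 2 probe sets of Chn2 (0.980 and 0.973). No other gene of the chain was among these picks. With 3 picks from 4299 probe sets over 6 arrays, that absence does not speak to shared regulation.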

How the data were processed

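The table as deposited by the authors gives, for each array, the MAS5 intensity of every probe set on a linear scale. MAS5 is named per the submitters' processing notes without a version, and the scaling target is not given in the sources used here. The instrument records hold, per the file headers, other information such as the tissue and the wash protocol. The table held no common scale, so arrays were quantile normalized, an offset of 2.21 (the 10th percentile of all values) was added and log2 taken, which understates changes of dim probe sets. Of 8799 probe sets, 59 controls were left out, and the 5244 of 8740 whose mean log2 exceeded 3.94, the 40th percentile, entered the fit. NASH and Control were compared with limma 3.58.1 in R 4.3.3 (lmFit, eBayes with an intensity trend, no covariate) and Benjamini-Hochberg adjustment. The fit was tested on simulated data. The number of arrays limits the precision.

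Groups came from the sample titles, since every description carries the text of the first Control sample. Symbols came from the platform annotation (7006 probe sets with 1, 308 with several, 1426 unlisted). The members, the pathway lists and the marker lists were chosen with earlier results of these data known. The text names every member probe set, the list genes past the threshold or with the 3 smallest p of their list, and 3 like genes per member. Marker genes, the promoters shown and array extremes were picked for the text after their values were seen. Lists used the probe set with the highest mean log2. The alternatives changed the scaling, the offset, the filter, the trend of the variance prior and the weights of arrays, or added a block or left arrays out.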

Additional observations from a re-analysis of the deposited data

How the results depend on the processing

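Across the alternatives with a test, the members called were 0 except without Control 2 and NASH 2, where 1 was called (Acly J05210_at, −1.59). Slc25a1, Srebf1 and U36773_at of Gpam kept their sign in all alternatives but not their size, with −0.68 to −0.25 for Slc25a1, −0.51 to −0.26 for Srebf1 and 0.075 (array weights) to 1.45 (without Control 1) for U36773_at. Values of the other sign, none past the threshold, were as follows. With array weights they were −0.27 for Acaca, −0.85 for X13527cds_s_at of Fasn and −0.25 for U36772_at of Gpam. Among filled wash records they were −0.10, −0.010 and −0.23 for the same probe sets, and without Control 2 and NASH 2 −0.033, −1.16 and −0.54. Without scaling between arrays X13527cds_s_at had −0.085. Between the blank wash records Acly had 1.76 and 1.08 and M76767_s_at of Fasn 1.24. With 1 array left out, differences ran from −1.48 to 0.20 and −1.25 to 0.032 for Acly, −0.15 to 0.54 for Acaca, −0.59 to 0.79 and −1.33 to 0.50 for Fasn, and −0.40 to 1.19 for U36772_at. The cause was not tested.

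Over all probe sets 7 were called, and 14 with no scaling between arrays, 0 with no filter (633 at an unadjusted p under 0.05), 3 without the trend, 18 with array weights, 3 with the wash record as a block, 1 among filled records, 16 without Control 2 and NASH 2, 14 at an adjusted p under 0.1 and 0 to 17 with 1 array left out. None of the 7 calls was kept with no filter, with the replicate block or with any 1 array other than NASH 2 left out. With the replicate block 1 was called, the members' differences were the same and none was called (Acly −0.41 and −0.46, limma adjusted p = 0.903 and 0.865). Deviations of same-numbered arrays from their group means correlated at 0.049, −0.021 and 0.073, beside −0.13 to 0.084 for arrays of unlike number. With 3 arrays per group these values cannot show whether the numbers pair samples. The numbers are used here only as names.

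List medians moved by more than their spread as follows. Sugar supply had −0.29 unscaled, −0.53 with array weights, −0.53 without Control 2 and NASH 2, and −0.45 to −0.056 with 1 array left out. Glycerolipid synthesis had −0.20 unscaled, 0.045 between blank records and −0.21 to 0.040 with 1 array left out. Regulators had −0.15 unscaled, −0.19 among filled and −0.18 between blank records, −0.11 without both arrays, −0.091 over all probe sets of a gene and −0.25 to 0.099 with 1 array left out. Feeding and clock genes had −0.59 between blank records.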

Other observations

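The 3 genes given here were picked after their values were seen because Control 2 was low in them, as it was for Acly. The malic enzyme Me1, which supplies NADPH, had log2 levels of 7.27, 7.76 and 7.26 in NASH 1, 2 and 3, against 8.34, 5.63 and 8.35 in Control 1, 2 and 3. Its NASH values lay inside the Control span, as for Acly, and the difference was −0.013. The choline kinase Chka had 7.03, 6.99 and 6.78 in NASH, against 8.11, 5.71 and 8.04 in Control. Insig1, which holds SREBP precursors in the endoplasmic reticulum, had 10.25, 10.37 and 10.22 in NASH, against 10.29, 8.83 and 11.25 in Control. They do not stand for their lists. Control 2 was the lowest array for 1 of 4 tested synthesis partners, 2 of 11 genes of NADPH and sugar supply, 4 of 11 of glycerolipid synthesis, 5 of 19 regulators and 3 of 11 feeding and clock genes, beside 22.1% of all probe sets tested.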
